A study of Homo sapiens with 18 samples.

Results

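RHOXF1 transfection was set against transfection with the control vector 24 h after delivery in HEK293, a line derived from human embryonic kidney that was transformed with adenovirus DNA. The comparison used 6 of the 18 arrays of the study: those labelled RHOXF1 24h and those labelled control 24h, 3 of each, with arrays of the same replicate number taken as pairs. The RHOXF1 cells had received a RHOXF1 expression vector and the control cells a control vector, for which the labels name pCMV6-AC-GFP from OriGene. Both were delivered by transient transfection with Lipofectamine 2000, so a share of the cells may carry no plasmid, and that share was not used here. The other groups were RHOXF2-transfected cells at 24 h, and RHOXF1, RHOXF2 and control cells at 48 h, with 3 arrays each. The labels leave unsaid whether the RHOXF1 plasmid carries a GFP sequence too. The series text calls the replicates biological triplicates. It does not say whether they were separate passages, so the p-values measure the spread between these samples.

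RHOXF1 is a homeodomain protein of the reproductive homeobox (RHOX) family, encoded on the X chromosome and known from germ cells and the reproductive tract. Homeodomain proteins bind DNA, many of them at sites with a TAAT core, and raise or lower transcription of nearby genes. In the mouse, the family member Rhox5 acts in Sertoli cells, the somatic cells that nurse developing sperm, and its known targets there include the netrin receptor gene Unc5c. HEK293 cells are neither germ cells nor Sertoli cells, and the comparison asks which transcripts of such a cell differ once RHOXF1 is supplied.

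Levels are log2 RMA values, the logarithm of background-corrected, quantile-normalized probe brightness summarised per transcript cluster, which is the array's unit for a gene. A difference of 1 on this scale is a doubling. Of 33297 clusters, 21214 carried a gene symbol and were tested with limma. A cluster was called at a Benjamini-Hochberg adjusted p under 0.05. The medians of the arrays of 24 h lay between 6.75 and 6.82, and the 6 arrays correlated with each other across clusters at 0.993 to 0.997. The 8 HEK293 markers lay between percentile 52.6 of all clusters, for STMN2, and 99.5, for NEFM. The neurofilament gene NEFM averaged 12.73 in RHOXF1 cells and 12.77 in control cells. The filament gene VIM averaged 11.53 in RHOXF1 cells and 11.36 in control cells. STMN2 averaged 7.56 in RHOXF1 cells and 7.63 in control cells. Of 11 markers of leukocytes, endothelium, liver and fibroblasts, the leukocyte gene PTPRC, the fibroblast gene DCN and the liver gene ALB lay at percentiles 2.5, 1.8 and 6.7 of all clusters, while CD68 and COL1A1 lay at 60.6 and 56.1. One array stood apart for small nuclear RNAs: RHOXF1 replicate 3 averaged 6.92 over 20 such genes, against 7.32 to 7.78 on the other 5 arrays.

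RHOXF1 itself was the single transcript called higher at the threshold, and none was called lower. The RHOXF1 cluster (8174755) read 12.13, 12.29 and 12.32 on the RHOXF1 arrays, against 6.13, 6.32 and 6.56 on the control arrays. The groups lay far apart, and the 3 pairs differed by 5.99, 5.97 and 5.77. The log2 difference was 5.91 ± 0.12 (SE, n = 3 pairs; 95% interval 5.64 to 6.18), which is 60.2-fold on the array scale, with a limma adjusted p of 7.617e-10. This was 1 call among 21214 clusters, or 0.00471%. Without the replicate block, the count was also 1. In a bulk sample, more cells carrying the plasmid and more RHOXF1 RNA per carrying cell cannot be told apart.

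The RHOXF2 cluster, which the array shares with its near-identical copy RHOXF2B, did not follow. It read 7.14, 6.30 and 6.15 on the RHOXF1 arrays, against 7.12, 6.77 and 6.54 on the control arrays. Those ranges overlapped, with a difference of -0.28 ± 0.16 (SE, limma adjusted p = 0.5845). RHOXF2-transfected cells read 12.78, 12.83 and 12.87 for this cluster. On the same RHOXF2 arrays the RHOXF1 cluster read 6.94, 7.61 and 7.89, all above the control arrays. Whether probes of the RHOXF1 cluster also capture RHOXF2 RNA was not tested.

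**Figure D1:**
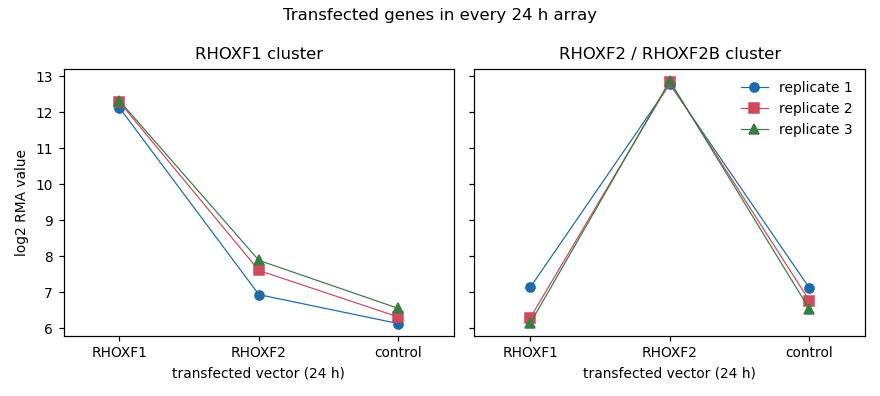
Log2 RMA value of the RHOXF1 cluster (left) and the shared RHOXF2 and RHOXF2B cluster (right) on each array of 24 h, by transfected vector, with lines joining arrays of 1 replicate number. RHOXF1 reads above 12 on the 3 RHOXF1 arrays and between 6.13 and 6.56 on the control arrays, and RHOXF2 reads near 12.8 on its own arrays alone.

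The genes that flank RHOXF1 on the X chromosome in the RefSeq order did not pass the test. TMEM255A, which encodes a transmembrane protein, differed by 0.26 ± 0.091 (SE, limma adjusted p = 0.4695), and its groups overlapped. ZBTB33, which encodes the methyl-CpG binding repressor Kaiso, differed by 0.14 with a 95% interval of -0.011 to 0.30. NKAP, AKAP14 and the pseudogene NKAPP1 lay between -0.062 and -0.028.

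For nearly all other transcripts the arrays bound the difference closely. The median SE was 0.082, and the 95% interval lay within -1 to 1 for 99.87% of the clusters and within -0.5 to 0.5 for 97.33%. After RHOXF1, the next cluster needed an unadjusted p of 4.714e-06 to be called, which at the median SE is a difference of 0.68, and less for clusters with a smaller SE. The smallest adjusted p other than that of RHOXF1 was 0.3643. At an unadjusted p under 0.05, limma gave 2044 clusters (9.64%), 948 of them higher (4.47%) and 1096 lower (5.17%). Apart from RHOXF1, 39 clusters differed by 0.5 or more, 6 higher and 33 lower, and 2 of these by 1 or more. Among the 12083 clusters without a symbol, adjusted separately, limma called 0, with 984 at an unadjusted p under 0.05.

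DNAJB1 came nearest to the threshold. It encodes a J-domain partner of the HSP70 chaperones and is a classical heat shock gene. DNAJB1 read 9.46, 10.26 and 9.94 on the RHOXF1 arrays, against 8.96, 9.32 and 9.45 on the control arrays. Every RHOXF1 array lay above every control array, though the lowest RHOXF1 value and the highest control value were close. The difference was 0.64 ± 0.096 (SE; 95% interval 0.43 to 0.85), or 1.56-fold, with a limma adjusted p of 0.3643. With a variance prior that follows the level and is robust to outlying genes, the adjusted p was 0.04043 and DNAJB1 became a second call. Over the alternatives run, the adjusted p ranged from 0.04043 to 0.9608 and the difference from 0.50 to 0.72. RHOXF2 cells read 9.47, 10.18 and 10.16 for DNAJB1, so the RHOXF1 and RHOXF2 groups overlapped, with a difference of -0.054 between them (limma adjusted p = 0.9998).

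At 48 h the DNAJB1 difference between RHOXF1 and control cells was 1.12 and passed the test (limma adjusted p = 0.01751). The difference at 24 h minus that at 48 h was -0.48, which did not pass (limma adjusted p = 0.8478). These arrays therefore show no difference of its effect between the times past the threshold.

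Among the other genes nearest to the threshold on the higher side, SNAI1 encodes the Snail zinc finger repressor, which shuts down the epithelial cadherin gene. SNAI1 read 6.73, 6.84 and 6.89 on the RHOXF1 arrays, against 6.47, 6.14 and 6.27 on the control arrays. The groups did not overlap, and the difference was 0.53 ± 0.089 (SE, limma adjusted p = 0.4129). RHOXF2 cells read 6.44, 6.25 and 6.31 for SNAI1, close to control, but the RHOXF1 minus RHOXF2 difference of 0.49 did not pass either (limma adjusted p = 0.5896). At 48 h the SNAI1 difference from control was 0.58, with a limma adjusted p of 0.3371. Over the alternatives run at 24 h, its adjusted p ranged from 0.08364 to 0.9608.

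SLITRK3 encodes a synaptic adhesion protein of the cell surface. It read 7.46, 7.08 and 7.30 on the RHOXF1 arrays, against 6.70, 6.65 and 6.95 on the control arrays, a difference of 0.51 ± 0.095 (SE, limma adjusted p = 0.438). PLA2G10, a secreted phospholipase A2, read 4.38, 4.55 and 4.26 on the RHOXF1 arrays, against 3.81, 4.08 and 3.88 on the control arrays. Its difference was 0.47 ± 0.076 (SE, limma adjusted p = 0.4129), at percentile 6.6 of level. CHAC1, a glutathione-degrading enzyme that the stress factor ATF4 induces, read 7.59, 7.63 and 7.52 on the RHOXF1 arrays, against 7.37, 7.12 and 6.85 on the control arrays. These 3 genes had groups that did not overlap, as did 976 clusters on the higher side, or 4.6% of all. RGS2, which shortens G protein signals, differed by 0.43 ± 0.086 (SE) with overlapping groups. LOC100506730, NDUFV1-DT and DPY19L2P2, which are noncoding or pseudogene transcripts, differed by 0.36, 0.37 and 0.37. None of these passed, and each had a limma adjusted p of 0.438 apart from PLA2G10.

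On the lower side, OR10S1, an olfactory receptor gene, was nearest. It read 6.03, 5.82 and 5.61 on the RHOXF1 arrays, against 6.40, 6.28 and 6.06 on the control arrays, a difference of -0.43 ± 0.071 (SE, limma adjusted p = 0.4129). FFAR3, a receptor for short-chain fatty acids, read 5.09, 5.12 and 4.87 on the RHOXF1 arrays, against 5.50, 5.43 and 5.48 on the control arrays. Its difference was -0.44 ± 0.076 (SE, limma adjusted p = 0.4209). A second FFAR3 cluster gave -0.50, and the gene has a near-identical neighbour, GPR42, whose RNA the probes may not separate. DLK1, a transmembrane relative of the Notch ligands, read 6.42, 6.36 and 6.32 on the RHOXF1 arrays, against 6.81, 6.78 and 6.61 on the control arrays. TFAP2B, a transcription factor of kidney and neural crest, read 5.24, 5.14 and 5.17 on the RHOXF1 arrays, against 5.59, 5.54 and 5.49 on the control arrays. In all 4 genes the groups did not overlap, as in 1046 clusters on the lower side (4.93%).

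The remaining genes near the threshold on the lower side were VWC2L, KIAA1614, RASAL3, MFSD6L, KRT23 and SCARNA5. Their differences ran from -0.54 for the small Cajal body RNA SCARNA5 to -0.36 for KIAA1614, each at a limma adjusted p of 0.438. SCARNA5 was at -0.41 without RHOXF1 replicate 3, in a fit that kept the other arrays of that number. RHOXF2 cells, measured against the same control arrays, were below control for every gene near the threshold on the lower side. Their differences ran from -0.50 for KRT23 to -0.22 for VWC2L and RASAL3. OR10S1 was -0.43 for RHOXF1 and -0.49 for RHOXF2, FFAR3 -0.44 and -0.42, DLK1 -0.36 and -0.37, and TFAP2B -0.36 and -0.46. Since these pairs of values share control arrays, their likeness is not independent. At 48 h, with other control arrays, the RHOXF1 minus control differences of OR10S1, FFAR3 and TFAP2B were -0.11, -0.10 and 0.10.

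**Figure D2:**
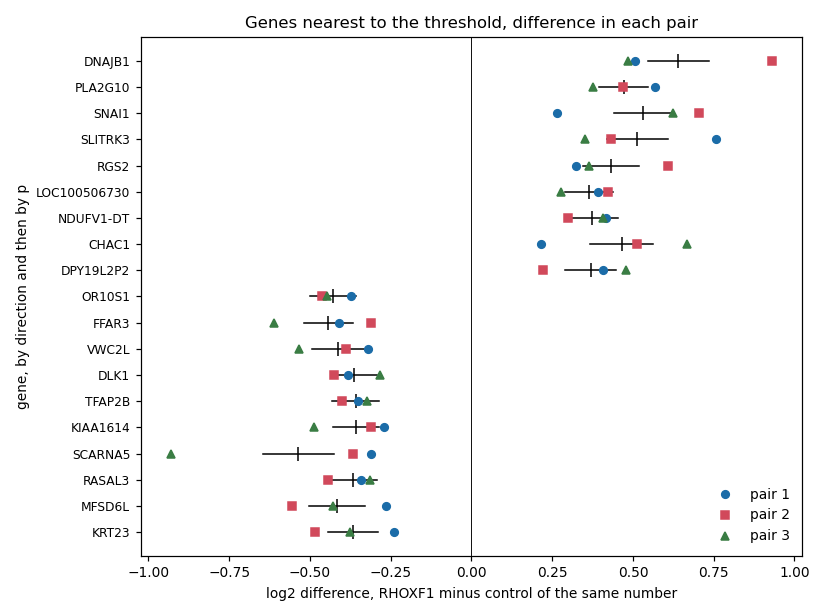
Log2 difference, RHOXF1 minus control, for the genes nearest to the threshold other than RHOXF1, higher genes above and lower genes below, each group ordered by p. Coloured symbols are the 3 pairs and the black mark is the fitted difference ± SE; all 3 pairs lie on 1 side of 0 by the rule that chose the genes, and none of the genes passed the test.

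**Figure D3:**
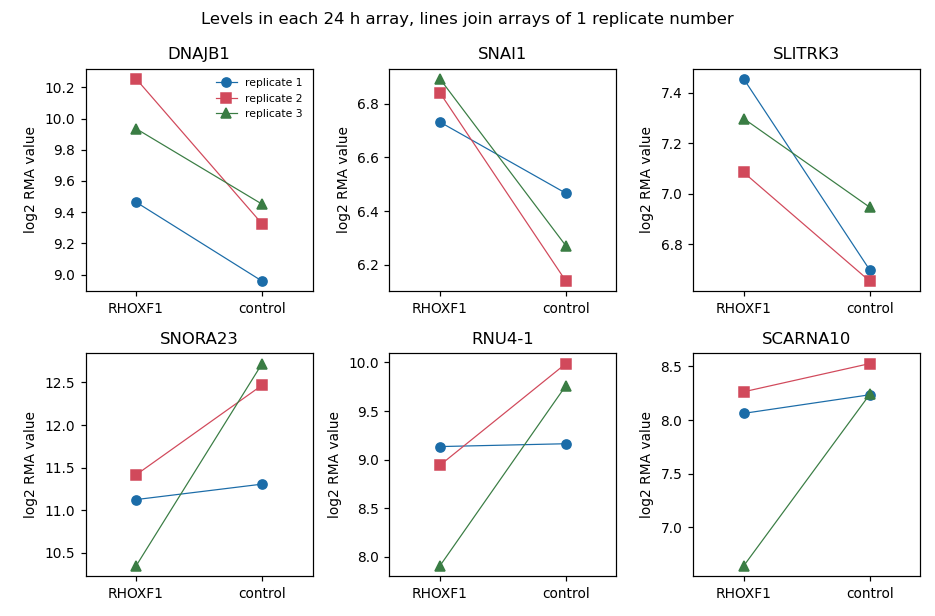
Log2 RMA value on each RHOXF1 and control array of 24 h for DNAJB1, SNAI1, SLITRK3, SNORA23, RNU4-1 and SCARNA10, with lines joining arrays of 1 replicate number. The vertical axes differ between panels, the first 3 genes are higher in RHOXF1 cells in every pair, and SNORA23, RNU4-1 and SCARNA10 are lowest on the array of RHOXF1 replicate 3.

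Apart from small structural RNAs, few other clusters differed by 0.5 or more. On the higher side these were the heat shock pseudogene HSP90AA6P at 0.61, the stress-regulated kinase PLK2 at 0.60 and the noncoding LINC00652 at 0.53. PLK2 read 6.63, 7.47 and 7.25 on the RHOXF1 arrays, against 6.28, 6.33 and 6.94 on the control arrays, with overlap and a second pair of 1.14. On the lower side the chemokine gene CCL4 read 3.17, 3.36 and 3.27 on the RHOXF1 arrays, against 3.82, 3.74 and 3.81 on the control arrays, at percentile 1.7 of level. SLC35G3, a solute carrier family gene, was 0.51 lower, and a cluster shared by 5 UGT2B genes of glucuronidation was 0.69 lower, with a value of -0.49 without RHOXF1 replicate 3. None of these passed, with limma adjusted p-values from 0.438 to 0.4735.

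Promoter sequence was read for the genes nearest to the threshold to see whether the TAAT core was there. The RefSeq promoter table (GRCh38.p14) held 10 of the 19 genes, and the first 2 on each side by p are shown, 250 bases before the start of transcription. DNAJB1 and PLA2G10 were on the higher side, VWC2L and TFAP2B on the lower side. Capitals mark TAAT or its reverse complement ATTA, and GAANNTTC or TTCNNGAA, each its own reverse complement, which are the inverted repeats of heat shock elements. The windows were chr19:14529272-14529521 on the minus strand, chr16:14694309-14694558 on the minus strand, chr2:214410804-214411053 on the plus strand and chr6:50818621-50818870 on the plus strand.
DNAJB1: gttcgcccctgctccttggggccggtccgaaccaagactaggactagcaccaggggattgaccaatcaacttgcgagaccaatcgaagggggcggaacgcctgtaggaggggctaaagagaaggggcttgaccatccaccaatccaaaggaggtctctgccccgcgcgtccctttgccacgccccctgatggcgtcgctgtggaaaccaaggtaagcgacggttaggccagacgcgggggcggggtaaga
PLA2G10: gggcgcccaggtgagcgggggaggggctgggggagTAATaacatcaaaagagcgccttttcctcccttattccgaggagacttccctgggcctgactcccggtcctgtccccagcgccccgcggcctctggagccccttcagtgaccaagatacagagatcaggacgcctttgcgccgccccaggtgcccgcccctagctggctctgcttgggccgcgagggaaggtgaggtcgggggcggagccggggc
VWC2L: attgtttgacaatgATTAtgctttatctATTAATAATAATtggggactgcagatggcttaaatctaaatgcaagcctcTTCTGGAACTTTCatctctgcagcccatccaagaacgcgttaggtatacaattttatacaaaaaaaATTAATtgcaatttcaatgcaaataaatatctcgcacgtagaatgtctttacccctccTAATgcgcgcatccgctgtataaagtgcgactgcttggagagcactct
TFAP2B: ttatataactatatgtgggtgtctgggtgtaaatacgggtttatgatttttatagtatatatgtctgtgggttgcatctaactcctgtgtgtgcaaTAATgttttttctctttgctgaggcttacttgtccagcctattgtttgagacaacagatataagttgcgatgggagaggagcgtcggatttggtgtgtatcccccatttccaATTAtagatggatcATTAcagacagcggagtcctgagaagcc

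DNAJB1 held 0 TAAT cores and 0 heat shock repeats in this window, and repeats at any other DNAJB1 start would not be seen here. PLA2G10 held 1 TAAT core, TFAP2B held 3, and VWC2L held 8 together with 2 heat shock repeats. TAAT on either strand was common: 48.2% of all 27305 promoter windows of this length held it, and 11.7% held a heat shock repeat. The 5561 measured genes with TAAT had a median difference of -0.0014, and the 8678 without it 0.013. The genes with TAAT also lay lower on the array, at a median level percentile of 41.7, against 58.9 for those without. A match is a run of letters and not a bound site.

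Transcripts at 0.5 or more below control were mostly small structural RNAs, a grouping made after the values were seen. Of the 33 clusters, 29 were small nuclear RNAs of the spliceosome, small nucleolar RNAs (snoRNAs) that guide RNA modification, small Cajal body RNAs (scaRNAs) or vault RNAs. They carried 19 names, since RNU2-1, the U2 RNA of the spliceosome, has many near-identical copies on the array. The SNORA64 cluster is shared with the ribosomal protein gene RPS2. Limma called 0 of them. Such RNAs carry no poly(A) tail, unlike most messenger RNAs.

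SNORA23, an H/ACA box snoRNA, read 11.13, 11.42 and 10.35 on the RHOXF1 arrays, against 11.31, 12.47 and 12.72 on the control arrays. The pairs differed by -0.18, -1.05 and -2.37, and the fitted difference was -1.20 ± 0.39 (SE, limma adjusted p = 0.4605). RNU4-1, a U4 RNA of the spliceosome, read 9.13, 8.94 and 7.90 on the RHOXF1 arrays, against 9.16, 9.99 and 9.76 on the control arrays. Its groups did not overlap, with a difference of -0.98 ± 0.24 (SE, limma adjusted p = 0.438). RNU5D-1, a U5 RNA, had pairs of 0.39, -1.09 and -3.11, the widest spread of the 3 named here, and a limma adjusted p of 0.5513. Its difference of -1.27 was -1.04 in a fit without the array of RHOXF1 replicate 3. That fit kept control and RHOXF2 replicate 3, so -1.04 is not the mean of the first and second pairs, 0.39 and -1.09.

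The pattern differed from pair to pair. In the first pair, 26 of the 29 clusters lay within 0.2 of 0. Below 0 were 21 of the 29 in the first pair and all 29 in the second and in the third pair. The clusters had been picked for their mean over these pairs, so the counts describe them only. Each copy of RNU2-1 is counted, though most copies share their values on every array, so the 29 are not separate RNAs. In a fit without the array of RHOXF1 replicate 3, 11 of the 29 were 0.5 or more lower, with SNORA23 at -1.01 and RNU4-1 at -0.70. The median of the 29 was then -0.45, against -0.63 with all arrays, and both medians are the value of RNU2-1 copies. That fit kept control and RHOXF2 replicate 3, so its values are not the mean of the remaining pairs. The first and second pairs were -0.18 and -1.05 for SNORA23, -0.029 and -1.05 for RNU4-1, and -0.12 and -0.56 for most RNU2-1 copies. Over all 20 clusters of the snRNA class, the array means were 7.54, 7.45 and 6.92 on the RHOXF1 arrays, against 7.32, 7.78 and 7.70 on the control arrays. In that class 17 of 20 were lower and the median difference was -0.25, with pair medians of 0.21, -0.23 and -0.53 and 4 of 20 lower in all 3 pairs. Without RHOXF1 replicate 3, 14 of 20 were lower and the median was -0.094.

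Members of the H/ACA box snoRNA and scaRNA list, the guides of pseudouridylation and of spliceosomal RNA modification, were taken by name and not by value. The list itself was chosen with earlier results of these data known. It includes SNORA23 and SCARNA5, which are also among the clusters picked above for their values. Of 77 measured members, 57 were lower and 20 higher, with a median of -0.14, against 0.0004 over all clusters. At an unadjusted p under 0.05, 28 members were lower and 1 higher, where all clusters gave 5.17% lower and 4.47% higher. All 3 pairs were lower for 34 members, or 44.16%, against 15.5% of all clusters. None was called by limma. The mean over the list was 7.52, 7.84 and 7.47 on the RHOXF1 arrays, against 7.55, 8.02 and 7.82 on the control arrays. The first pair barely differed, and the gap was widest in the third. Without RHOXF1 replicate 3 the median was -0.063, without control replicate 1 it was -0.21, and it was below 0 in every fit that left out a replicate or an array.

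Some single members differed by like amounts in each pair. SNORA69 read 4.28, 4.61 and 4.77 on the RHOXF1 arrays, against 4.51, 4.95 and 5.16 on the control arrays, a difference of -0.32 ± 0.078 (SE, limma adjusted p = 0.438). SNORA38 read 7.60, 7.71 and 7.56 on the RHOXF1 arrays, against 7.81, 8.16 and 7.85 on the control arrays. At 48 h SNORA38 fell by 0.63 in RHOXF1 cells against control cells (limma adjusted p = 0.005618), 1 of 5 clusters called at that time (0.0236%). For the H/ACA and scaRNA list the median at 48 h was -0.11, and for RHOXF2 cells at 24 h, with the same control arrays, it was -0.054. C/D box snoRNAs, which guide ribose methylation, were nearer to even, with 62 of 115 lower and a median of -0.026 that was 0.024 without replicate 3.

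**Figure D4:**
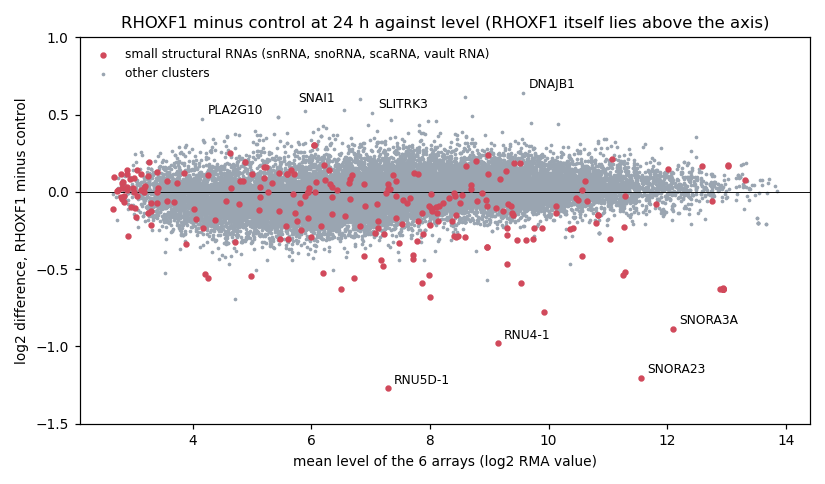
Log2 difference, RHOXF1 minus control, against the mean log2 RMA value of the 6 arrays, with 1 point per named cluster and small structural RNAs in red. RHOXF1 lies above the axis, DNAJB1 is the highest cluster shown at 0.64, and the clusters furthest below 0 are small structural RNAs such as RNU5D-1 at -1.27 and SNORA23 at -1.20.

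Genes of the heat shock response leaned higher, with 18 of 24 measured members above control and a median of 0.065. The list lies at a median level percentile of 83.3, and in the brightest bin of the array 67.52% of all clusters were higher. Without replicate 2 the median was 0.032, with 15 of 24 higher, and without replicate 3 it was 0.10. Beside DNAJB1, the 3 others at an unadjusted p under 0.05 were the small heat shock protein HSPB1 at 0.235, the HSP70 cochaperone BAG3 at 0.24 and the testis-rich HSP70 gene HSPA1L at 0.36, with limma adjusted p-values of 0.4634, 0.4785 and 0.4821. HSPB1 read 11.23, 10.93 and 10.94 on the RHOXF1 arrays, against 11.17, 10.60 and 10.64 on the control arrays. The clusters shared by HSPA1A and HSPA1B, the main stress-induced HSP70 genes, were 0.11 to 0.18 higher and did not pass. The median of the list was 0.072, 0.12 and -0.025 in the 3 pairs. Chaperones of the endoplasmic reticulum were even, with 9 of 18 higher.

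Targets of ATF4, the factor of the amino acid and integrated stress response, were higher in 15 of 21 (71.43%), with a median of 0.053. The list lies at a median level percentile of 70, in a bin of level where 65.92% of all clusters were higher. CHAC1 and SESN2, a stress-induced inhibitor of growth signalling, were the 2 with an unadjusted p under 0.05, at 0.47 and 0.16. The median of this list was -0.0024 without control replicate 2, with 10 of 21 higher, and 0.089 without control replicate 1. RHOXF2 cells gave a median of 0.16 against the same control arrays.

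Immediate early genes, which respond first to growth factor and stress signals, were higher in 19 of 27, with 6 at an unadjusted p under 0.05 and 0 lower at that level. The list lies at a median level percentile of 58.4, in a bin of level where 51% of all clusters were higher. Over the whole array, 4.47% of clusters were higher and 5.17% lower at an unadjusted p under 0.05. The orphan nuclear receptor gene NR4A2 read 6.93, 7.35 and 7.21 on the RHOXF1 arrays, against 6.91, 6.49 and 6.80 on the control arrays, a difference of 0.43 ± 0.12 (SE, limma adjusted p = 0.438). EGR1, a zinc finger factor, read 8.47, 8.80 and 8.59 on the RHOXF1 arrays, against 8.42, 8.12 and 8.31 on the control arrays. The second pair carried most of this: the median of the list was -0.018, 0.20 and 0.031 in the 3 pairs. Over all pairs it was 0.048, against 0.016 without replicate 2 and 0.14 without control replicate 1. CCN2, a matrix protein that YAP and TEAD also drive, was 0.30 ± 0.096 (SE) higher with a limma adjusted p of 0.4455. YAP and TEAD targets as a list were higher in 15 of 18, with a median of 0.064. They lie at a median level percentile of 59.6, in the same bin of level, where 51% of all clusters were higher.

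FOSB, a partner of JUN in the AP-1 factor, was the gene nearest to the threshold between RHOXF1 and RHOXF2 cells. It read 6.62, 7.08 and 6.83 on the RHOXF1 arrays, against 6.26, 6.30 and 6.05 on the RHOXF2 arrays, and the groups did not overlap. The difference was 0.64 ± 0.11 (SE, limma adjusted p = 0.4377). Control cells read 6.63, 6.45 and 6.41, above every RHOXF2 array. On this contrast limma called 3 clusters (0.0141%), the RHOXF1 cluster at 4.77 and both copies of the RHOXF2 cluster at -6.30. At an unadjusted p under 0.05 there were 745 clusters (3.51%). Without RHOXF1 replicate 1 the count of calls was 7, with FOSB, RNU5A-1 and a pair of clusters shared by SUPT20HL1 and SUPT20HL2 added. HSPA6, a strictly stress-induced HSP70 gene, was 0.78 lower in RHOXF1 than in RHOXF2 cells (limma adjusted p = 0.9789). It read 6.33, 6.94 and 6.82 on the RHOXF1 arrays, against 6.89, 7.70 and 7.84 on the RHOXF2 arrays. Control cells read 6.66, 6.65 and 6.48 for HSPA6, so RHOXF1 cells were 0.10 and RHOXF2 cells 0.88 above control.

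Metabolic lists had medians above 0. Hypoxia and glycolysis genes were higher in 17 of 19, with a median of 0.11. They lie at a median level percentile of 85.9, in the brightest bin, where 67.52% of all clusters were higher. BNIP3, a mitophagy receptor induced by low oxygen, read 11.47, 10.85 and 10.65 on the RHOXF1 arrays, against 11.40, 10.35 and 10.26 on the control arrays. The arrays of replicate 1 read higher than the others in both groups, and the pairs of BNIP3 differed by 0.067, 0.50 and 0.39. The fitted difference was 0.32 ± 0.10 (SE, limma adjusted p = 0.4605). PDK1, the kinase that closes the pyruvate dehydrogenase gate, and P4HA1, a collagen prolyl hydroxylase, were each 0.25 higher. The median of the list was 0.016 without replicate 2 and 0.23 without replicate 1.

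Cholesterol and fatty acid synthesis genes were higher in 11 of 16, with 4 at an unadjusted p under 0.05, among them DHCR7 at 0.23 and IDI1 at 0.23, 2 enzymes of the sterol pathway. The median of 0.073 was 0.11 without RHOXF1 replicate 3. The list lies at a median level percentile of 86.9, in the brightest bin, where 67.52% of all clusters were higher. In 8 of the 16 all 3 pairs were higher, or 50% against 17.8% of all clusters. DHCR7 read 10.81, 10.86 and 10.79 on the RHOXF1 arrays, against 10.62, 10.54 and 10.63 on the control arrays, without overlap. Metallothionein MT1F, a metal-binding protein, was 0.38 ± 0.13 (SE) higher with a limma adjusted p of 0.463.

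Proliferation genes gave small differences. The G1/S and G2/M lists lie at median level percentiles of 88 and 92, in the brightest bin, where 67.52% of all clusters were higher. G1/S and replication genes were higher in 18 of 26, with a median of 0.069. Without replicate 2 the median was 0.014, with 15 of 26 higher, without RHOXF1 replicate 3 it was 0.13, and after repeated quantile normalization it was 0.031. The list was led by the replication licensing factor CDT1 at 0.34 ± 0.10 (SE, limma adjusted p = 0.4386). G2/M genes were higher in 17 of 24, with 0 at an unadjusted p under 0.05 in either direction and a median of 0.050 that was -0.0034 without replicate 1. Replication-dependent histones were higher in 28 of 33, with pair medians of 0.19, 0.10 and -0.052. Their median of 0.062 was 0.012 without replicate 1 and 0.13 without replicate 3. The histone list lies at a median level percentile of 59.7, in a bin of level where 51% of all clusters were higher. The p53 targets and apoptosis genes were higher in 14 of 23, with a median of 0.026 that was -0.0056 after repeated quantile normalization and -0.034 without replicate 2. Interferon-stimulated genes were higher in 9 of 23, with a median of -0.046 that was -0.0080 without replicate 3. In the bins of level that hold the p53 and interferon lists, 65.92% and 33.5% of all clusters were higher. NF-kappa-B targets were higher in 9 of 18, and cytosolic ribosomal protein genes in 19 of 37.

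Genes of the reproductive setting gave no call. Germ cell and meiosis genes were lower in 33 of 43, with a median of -0.085 and 7 lower at an unadjusted p under 0.05. PIWIL1, which silences transposons in the germ line, read 4.55, 4.67 and 4.49 on the RHOXF1 arrays, against 4.73, 4.85 and 4.82 on the control arrays. Its difference was -0.23 ± 0.081 (SE, limma adjusted p = 0.4695). PRM2, a protamine of sperm chromatin, was 0.22 lower, at a limma adjusted p of 0.4814. The list sits low on the array, at a median level percentile of 12.8, in the dimmest bin, where 66.5% of all clusters were lower. In that bin, 346 of 4242 clusters were lower at an unadjusted p under 0.05. After repeated quantile normalization the median was -0.032, with 16 of 43 higher, and without replicate 1 it was -0.043. Sertoli and Leydig cell genes split 12 and 12, with a median of -0.0091 that was -0.075 without RHOXF1 replicate 3. The steroidogenic factor gene NR5A1 was 0.21 lower and the Leydig hormone gene INSL3 0.19 lower, and neither passed (limma adjusted p = 0.4735 and 0.5007).

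Human counterparts of known mouse Rhox5 targets also gave no call. Of 8 measured, 5 were higher, and the median of 0.031 was -0.0024 after repeated quantile normalization and -0.0046 without replicate 2. PLTP, a lipid transfer protein, was highest at 0.30 ± 0.073 (SE, limma adjusted p = 0.438). It read 9.57, 9.18 and 9.39 on the RHOXF1 arrays, against 9.37, 8.79 and 9.08 on the control arrays, higher in each pair while the groups overlapped. RETN, the hormone resistin, was lowest at -0.24, reading 6.83, 6.88 and 6.93 on the RHOXF1 arrays, against 7.17, 7.11 and 7.07 on the control arrays. The netrin receptors UNC5A, UNC5B, UNC5C and UNC5D lay between -0.076 and 0.10.

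Other homeobox genes were near control. In the list of paired-class and related homeobox genes, 21 of 29 were lower, with a median of -0.052. That is 72.41%, against 67.31% of all clusters in the bin of level that holds the list. PHOX2A, a factor of autonomic neurons, was the 1 member with an unadjusted p under 0.05, at -0.23 ± 0.094 (SE, limma adjusted p = 0.4926). The germ cell homeobox gene NOBOX was 0.15 lower and the organizer gene GSC 0.15 higher. HOX cluster genes were higher in 14 of 27, with a median of 0.022 that was -0.017 without RHOXF1 replicate 3. HOXC5 read 7.27, 6.93 and 6.90 on the RHOXF1 arrays, against 6.95, 6.58 and 6.63 on the control arrays, higher by 0.27 to 0.35 in each pair, with a limma adjusted p of 0.438. HOXD12 was 0.24 lower.

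The remaining lists also held 0 calls. Regulators of the epithelial to mesenchymal transition and junction genes, the list that holds SNAI1, were higher in 13 of 19, with a median of 0.028 that was 0.014 without control replicate 2. Oxidative stress and metallothionein genes were higher in 11 of 16, with a median of 0.086 that was 0.048 without control replicate 1. HEK293 markers were higher in 5 of 8, with a median of 0.020 that was -0.0030 after repeated quantile normalization and -0.013 without RHOXF1 replicate 2. Markers of the other cell types were lower in 9 of 11, with a median of -0.012 that was -0.094 without RHOXF1 replicate 3 and 0.0068 without replicate 1, and 3 of them had an unadjusted p under 0.05. Clusters of microRNA genes were lower in 121 of 189, defensin genes in 17 of 27 and snoRNA host genes in 3 of 4, with medians of -0.034, -0.013 and -0.080. These medians ran from -0.078 to -0.021, from -0.080 to 0.014 and from -0.13 to -0.011 over the left-out replicates and arrays. In the bin of level that holds the microRNA, defensin and other cell type lists, 66.5% of all clusters were lower. In that of the oxidative stress list, 65.92% were higher, and in that of the list that holds SNAI1, 51%.

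**Figure D5:**
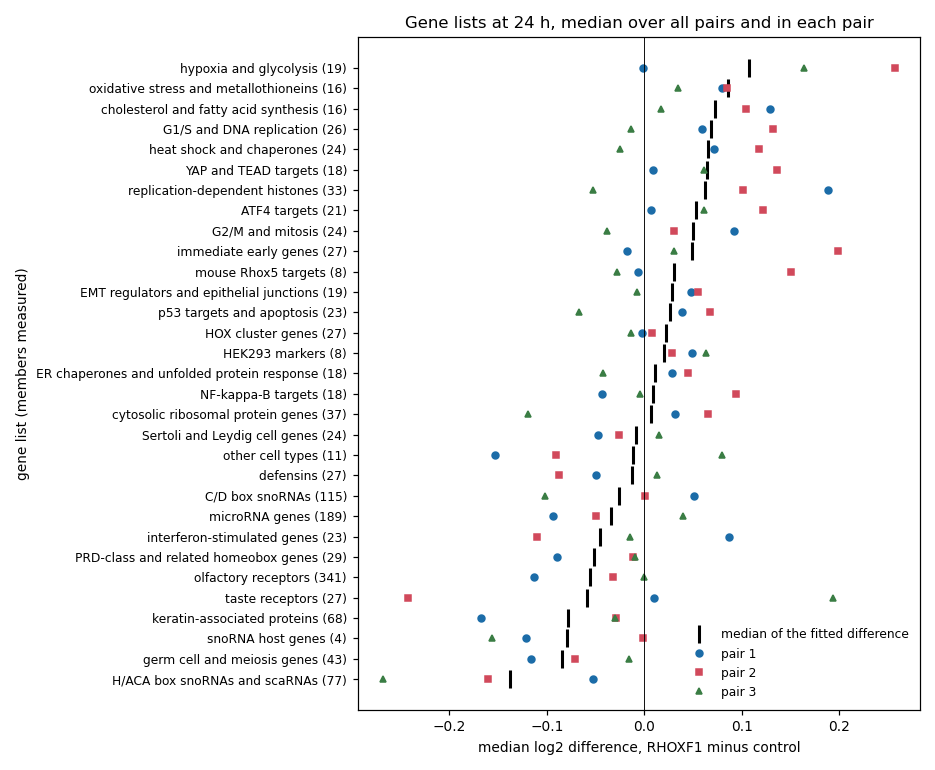
Median log2 difference, RHOXF1 minus control, of each gene list (black mark) and the median of each pair (coloured symbols), ordered from highest to lowest, with the number of measured members in brackets. Hypoxia and glycolysis genes have the highest median at 0.11 and H/ACA box snoRNAs and scaRNAs the lowest at -0.14, and for many lists the 3 pairs lie on both sides of 0.

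Dim and bright clusters leaned to opposite sides across the whole array. With the clusters cut into 5 equal bins of level, the median difference was -0.045, -0.055, 0.0033, 0.036 and 0.036 in order of rising level. The share of lower clusters was 66.5% in the dimmest bin and 32.48% in the brightest. This lean was in the first and second pairs, with medians of -0.080 and -0.041 in the dimmest bin, and was close to 0 in the third, at -0.0062. Families that are mostly silent in such cells also leaned lower over all pairs. Olfactory receptor genes were lower in 228 of 341, with a median of -0.055, keratin-associated protein genes in 52 of 68, with a median of -0.078, and taste receptor genes in 18 of 27. After repeated quantile normalization the olfactory receptor median was -0.0093 and 158 of 341 were higher, and without control replicate 1 it was -0.0043. The keratin-associated median was -0.033 without control replicate 1, and the taste receptor median of -0.059 was 0.092 without replicate 2. Taste receptor pair medians were 0.0094, -0.24 and 0.19, so that list was lower in the second pair only and did not share the pair pattern of the dim bins. The H/ACA and scaRNA list, at a median level percentile of 55.1 and a median of -0.14, lay further from 0 than the bin of its level. The hypoxia and glycolysis list, at percentile 85.9 and 0.11, did so with all arrays. Its median was 0.016 without replicate 2 and 0.031 without RHOXF1 replicate 2, below the 0.036 of the brightest bin with all arrays.

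The RHOXF1 effect at 24 h was set against that at 48 h with separate control arrays. The RHOXF1 cluster was 6.14 above control at 48 h, and 24 h minus 48 h was -0.23 ± 0.40 (SE, limma adjusted p = 0.9443). Limma called 0 clusters (0%) whose effect differed between the times, with 1237 (5.83%) at an unadjusted p under 0.05. Array numbers 1 to 9 are all of 24 h, so time and array order cannot be told apart. LYZL1, a lysozyme-like gene of the sperm, had the smallest p, with 0.16 at 24 h and -0.47 at 48 h, and RASAL3, a Ras regulator of lymphocytes, had -0.37 at 24 h and 0.19 at 48 h, each at a limma adjusted p of 0.8472. Across 21211 clusters, leaving out those of the transfected genes, the effects at the 2 times correlated at a Pearson r of 0.14 and a Spearman rho of 0.096, over clusters that share arrays and so are not independent. Between single pairs of 24 h the Pearson r was 0.24, 0.035 and 0.18.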

How the data were processed

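The data are log2 RMA expression values from Affymetrix arrays, 1 array per sample, deposited by the authors as a table of 33297 transcript clusters. Per the labels, they were made with Affymetrix Expression Console 3.1, which background-corrects, quantile-normalizes and summarises the probes. The array descriptions name a Human Gene ST array and the series text an exon array. The build of the annotation is not given in the sources used here. Symbols came from the platform's probe table: 19460 clusters had 1 symbol, 1754 several and 12083 none. On every array, 703 named clusters shared their values with another cluster. Entrez identifiers of 19429 clusters matched the RefSeq gene table.

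The 9 arrays of 24 h entered 1 linear model per cluster (lmFit and eBayes of limma 3.58.1, R 4.3.3), with replicate number as a fixed block. The RHOXF1 minus control contrast is then the mean of the 3 paired differences, and the RHOXF2 arrays add to the estimate of the spread, which had 4 residual and 6.95 prior degrees of freedom. Tests were two-sided, adjusted over 21214 clusters by Benjamini-Hochberg. The block was taken because the rule of this comparison pairs arrays of 1 number. Arrays of 1 number also deviated together: the RHOXF1 and control deviations correlated at 0.45, 0.35 and 0.33 within a number. Between numbers they correlated at -0.37 to 0.047, but deviations from a group mean cancel out, so these values are not separate evidence. The fit was tested on simulated data. The number of arrays limits the precision. No dim clusters were filtered out.

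Genes were named by a rule: those called, filled up to 10 in each direction by the smallest p among clusters with 1 symbol and all 3 pairs on that side. Up to 3 members of each of 31 gene lists and up to 5 genes in each direction of the other contrasts were added. A gene with several clusters is given by its brightest. The comparison, its members and the lists were chosen with earlier results of these data known, and genes outside the rule are described after their values were seen. Level percentiles are over named clusters. Alternatives changed the block, the arrays in the fit, the normalization, the filter, the variance prior and each replicate. Where a single array was left out, the other arrays of its number stayed in the blocked fit. The RHOXF1 minus control difference is then not the mean of the remaining pairs, since RHOXF2 arrays also enter it.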

Additional observations from a re-analysis of the deposited data

How the results depend on the processing

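The count of 1 call, RHOXF1, was also 1 without the replicate block (9 or 18 arrays), with the 6 arrays alone, with all 18 arrays and a block within time, after repeated quantile normalization, cyclic loess or median centring, above the median level, with single-symbol clusters, and without each replicate or array in turn (lowest 1, highest 1). With a trended and robust prior it was 2, DNAJB1 being added. The RHOXF1 difference ranged from 5.78 to 6.03. Without the replicate block, clusters at an unadjusted p under 0.05 numbered 1002, against 2044 with it, and the smallest adjusted p other than that of RHOXF1 was 0.9178. Leaving out replicates or arrays gave 1119 to 2602 such clusters. For RHOXF1 against RHOXF2 the count was 3 without the replicate block, and 3 to 7 when replicates or arrays were left out. The difference between the times gave 0 calls throughout, with 998 clusters at an unadjusted p under 0.05 without the replicate block. UNC5B ran from -0.0019 to 0.16 and KRT8 from -0.32 to 0.071 over the left-out replicates and arrays, and the cause was not tested. Of the single-gene values, 1030 kept direction and side under the other alternatives, DNAJB1 crossing in 1. List medians moved by more than the spread between pairs in 9 cases, and in 14 more when a replicate or array was left out.

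At the median SE, the next call after RHOXF1 needed a difference of 0.68, and clusters with a smaller SE needed less.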
